A study of Rattus norvegicus with 36 samples.

Results

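Collagens, laminins and integrins are the fibres, the basement membrane and the cell surface receptors through which a muscle fibre is held in its matrix. Their probe sets were taken by symbol: a single gene symbol made of Col, a number, a and a number, or one that begins Lama, Lamb, Lamc, Itga or Itgb. This gave 45 probe sets for 32 genes (15 collagens, 6 laminin chains and 11 integrin subunits) of the 4736 genes named by 1 symbol on the array. Each of the 9 genes with several probe sets was represented by the brightest over all arrays, and the others were checked for direction. Of the 32 genes, 29 were bright enough to test (14 collagens, 5 laminins and 10 integrins). Col9a1, Lama5 and Itgam were not: their highest intensities on any array were 288, 176 and 311, under the 320.4 that at least 3 arrays had to exceed.

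The study measured total RNA of rat extraocular muscle (EOM), which moves the eye, and of a leg sample of gastrocnemius and soleus, on Affymetrix RG-U34A arrays. The 6 ages were days 0, 7, 14, 21, 28 and 45 after birth, and each of the 12 groups of muscle and age had 3 arrays, 36 in all. The strain, sex, genotype and number of animals per array are not given in the sources used here, and no treatment is named. Nothing states that the arrays of a group came from different animals, so the p-values reflect no more than the spread among these arrays, which may be technical.

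Collagens are made of intertwined chains. Types I, II, III, V and XI form fibrils, type XII lies on their surface, and types IV and XV belong to the basement membrane and its outer zone. Laminins join an alpha, a beta and a gamma chain into the sheet that wraps each muscle fibre, where the receptor integrin alpha 7 beta 1 binds them. In limb muscle, loss of the laminin alpha 2 chain or of integrin alpha 7 causes muscular dystrophy.

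The bases upstream of the start site are shown for 4 collagens on which the results turn: Col5a1, Col5a2 and Col11a1, whose chains assemble together and which fell in both muscles, and Col4a5, which was higher in EOM. The RefSeq promoter table of build GRCr8 held 24 of the 32 genes. Each sequence is the 250 bases before the start site, 5′ to 3′ on the gene's own strand. Capitals mark GGGCGG, the GC box, and CCAAT, searched on both strands, so that a match on the opposite strand reads as its reverse complement. The windows are chr3:31606630-31606879 on the plus strand, chr9:55090152-55090401 on the minus strand, chr2:204508886-204509135 on the plus strand and chrX:109907109-109907358 on the plus strand.
Col5a1: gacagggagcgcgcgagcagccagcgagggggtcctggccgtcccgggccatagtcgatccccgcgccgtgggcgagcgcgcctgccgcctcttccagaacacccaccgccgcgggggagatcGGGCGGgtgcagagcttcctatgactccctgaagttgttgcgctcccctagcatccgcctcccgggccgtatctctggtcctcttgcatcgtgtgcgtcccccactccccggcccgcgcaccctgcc
Col5a2: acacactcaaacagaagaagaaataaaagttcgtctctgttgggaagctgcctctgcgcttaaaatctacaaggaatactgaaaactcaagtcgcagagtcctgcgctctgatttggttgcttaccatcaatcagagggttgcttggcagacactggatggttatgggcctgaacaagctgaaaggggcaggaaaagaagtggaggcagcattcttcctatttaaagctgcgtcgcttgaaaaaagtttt
Col11a1: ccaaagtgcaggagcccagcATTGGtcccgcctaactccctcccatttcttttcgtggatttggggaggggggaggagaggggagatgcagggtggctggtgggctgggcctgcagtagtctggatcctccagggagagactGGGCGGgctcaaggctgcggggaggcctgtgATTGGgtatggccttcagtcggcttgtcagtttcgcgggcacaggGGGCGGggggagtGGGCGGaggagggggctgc
Col4a5: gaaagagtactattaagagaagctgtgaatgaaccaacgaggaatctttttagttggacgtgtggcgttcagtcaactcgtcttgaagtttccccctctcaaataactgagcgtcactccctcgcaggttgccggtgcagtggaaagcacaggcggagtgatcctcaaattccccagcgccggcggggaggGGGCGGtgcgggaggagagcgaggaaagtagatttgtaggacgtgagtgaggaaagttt
Col11a1 held GGGCGG 3 times, at 108, 32 and 19 bases before the start site, and CCAAT 2 times on the opposite strand. Col5a1 and Col4a5 each held GGGCGG 1 time, at 127 and 59 bases, and Col5a2 held neither. Among the 24 matched genes, GGGCGG was found in 11 (45.8%) and CCAAT in 4 (16.7%), against 30.5% and 34% of all 33469 promoters of the same length. The G and C content was 71.6% for Col5a1, 44.8% for Col5a2, 65.6% for Col11a1 and 52.8% for Col4a5. These matches describe the letters only, and neither binding nor methylation was measured.

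The deposited intensities had been brought to a common trimmed mean, and array medians ranged from 418.7 to 652.2. Within a group, pairs of arrays correlated at 0.877 to 0.953 over the tested probe sets. All 11 measured muscle fibre markers were bright enough to test. Ckm, the muscle creatine kinase, lay at the floor set for all intensities (100.9) on all arrays of both muscles at days 21 and 28. This floor is no detection call, so it does not show that the transcript was absent. Keratins and other epithelial and gland markers moved with EOM at the first ages: 9 of 9 were higher at day 0 and 5 of 9 at day 7. Their summed intensity at day 0 was 27036 to 38925 in EOM and 2805 to 5112 in leg. Bulk intensities cannot tell fewer cells of a type from less RNA per cell, which holds for every value below.

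Of the collagens, 6 fell with age in both muscles: the fibril-forming Col2a1, Col5a1, Col5a2 and Col11a1, and with them Col12a1 and Col26a1. Between day 0 and day 45, 9 of 29 tested members changed in EOM, against a background of 31.3% of all tested probe sets, and 10 of 29 changed in leg, against 32.8%. The shares of members, 31% and 34.5%, were thus close to those of all probe sets, while the directions were not evenly split: 7 fell and 2 rose in EOM, where 18.4% of all probe sets fell and 12.9% rose. In leg 9 fell and 1 rose, against 18.5% and 14.4%. The median log2 change of the members was -0.19 in EOM and -0.26 in leg, beside -0.04 and 0.06 for all tested probe sets. These 6 are 85.7% of the members that fell in EOM and 66.7% of those that fell in leg, beside 64.8% and 64.7% for all tested probe sets, of which 11.9% fell in both. No alternative setting, scaling included, turned a direction among the 6. The alternative that gives all arrays 1 median called 6 members lower and 3 higher in EOM, and 9 and 1 in leg. Every difference here is on the log2 scale of intensities floored at 100.9, given with its fitted standard error (±), and the adjusted p is limma's, with Benjamini-Hochberg adjustment over all 6672 tested probe sets.

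Col5a1, the type V chain that starts fibril assembly, fell in each muscle. Its intensity in EOM was 12734, 10523 and 9383 at day 0, 9624, 6953 and 4997 at day 14 and 2030.0, 1929.6 and 3445 at day 45. In leg it was 11749, 13732 and 7417 at day 0, 5452, 4922 and 4195 at day 14 and 2042, 1671 and 2858 at day 45. All day 45 arrays lay below all day 0 arrays of their muscle. The change was -2.18 ± 0.26 (adjusted p = 1.15e-07) in EOM and -2.31 ± 0.26 (adjusted p = 3.32e-08) in leg, a 4.53-fold and a 4.97-fold fall.

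Col5a2, its partner chain, fell in both muscles as well. EOM arrays read 10323, 9266 and 12189 at day 0, 9367, 8932 and 11391 at day 21, 6936, 7574 and 6370.5 at day 28 and 6661, 3930.1 and 4199 at day 45. Leg arrays read 14995, 12464 and 11608 at day 0, 5679, 6720.4 and 8564 at day 21, 4629, 4747 and 3478 at day 28 and 2705, 2562 and 4106 at day 45. EOM arrays at day 21 lay above all leg arrays of that age, and at day 45 the ranges of the muscles overlapped. The fall to day 45 was -1.14 ± 0.21 (adjusted p = 9.08e-05) in EOM and -2.08 ± 0.21 (adjusted p = 4.60e-09) in leg, with some day 0 arrays of both muscles in the brightest 5% of all values (over 9392), where a fall can be understated. The fall of Col5a2 in leg exceeded that in EOM by 0.95 ± 0.30, which was not past the threshold (adjusted p = 0.0722).

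Col11a1, a minor chain of cartilage and fetal fibrils, reached the floor in both muscles. EOM arrays read 570.0, 177 and 825 at day 0 and 105, 220.2 and 96.8 at day 45, and the ages overlapped. Leg arrays read 1092, 1777 and 1085 at day 0, 391, 310.2 and 393 at day 14 and 133, 53.3 and 137 at day 45, with no overlap. The change was -1.72 ± 0.49 (adjusted p = 0.00709) in EOM and -3.39 ± 0.49 (adjusted p = 2.25e-06) in leg, where day 45 was at least 10.5-fold lower. The EOM call ended without EOM day 0 replicate 3 (-1.26), and in a fit of the compared groups alone. The other Col11a1 probe set, U20121_at, was too dim to test, at the floor on 35 of 36 arrays, so it does not show the fall.

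Col2a1, the main collagen of cartilage, had the largest fall of the 29 tested members. EOM arrays read 2532, 2781 and 2014 at day 0, 503, 1193 and 790.3 at day 21 and 105, 203 and 174 at day 45. Leg arrays read 4749.8, 5335 and 3888 at day 0, 933, 566 and 808 at day 21 and 178, 144 and 93.3 at day 45. Each muscle ended near the floor, and day 0 and day 45 were apart by -3.97 ± 0.41 (adjusted p = 9.97e-09) in EOM and -5.07 ± 0.41 (adjusted p = 5.45e-11) in leg, at least 33.6-fold. The other Col2a1 probe set, L48618_at, lay at the floor on 35 of 36 arrays and does not show the fall. Of 6 tested markers of cartilage and bone, 1 fell in EOM between these ages (Mia, -4.83 ± 0.34) and 0 fell in leg, where 1 rose.

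Col12a1, which decorates fibrils in tendon and fascia, read 2106, 2367 and 2773 at day 0 and 880.0, 883 and 434 at day 45 in EOM, and 3369, 5976 and 4515 at day 0 and 746, 642 and 472 at day 45 in leg. The lowest age means came before day 45, at day 28 in EOM (417, 617 and 618) and at day 21 in leg (582, 419 and 673). The change from day 0 was -1.79 ± 0.26 (adjusted p = 2.62e-06) in EOM and -2.88 ± 0.26 (adjusted p = 3.83e-10) in leg. Col26a1, a short collagen known from the developing testis and ovary, read 3484, 3009 and 2795 at day 0, 744, 773 and 681 at day 21 and 1188, 2215 and 496 at day 45 in EOM. In leg it read 2449, 2988 and 3134 at day 0 and 1024, 762 and 738 at day 45. It fell by 1.50 ± 0.31 (adjusted p = 3.47e-04) in EOM and by 1.77 ± 0.31 (adjusted p = 3.84e-05) in leg, and the EOM call ended in a fit of the compared groups alone.

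**Figure D1:**
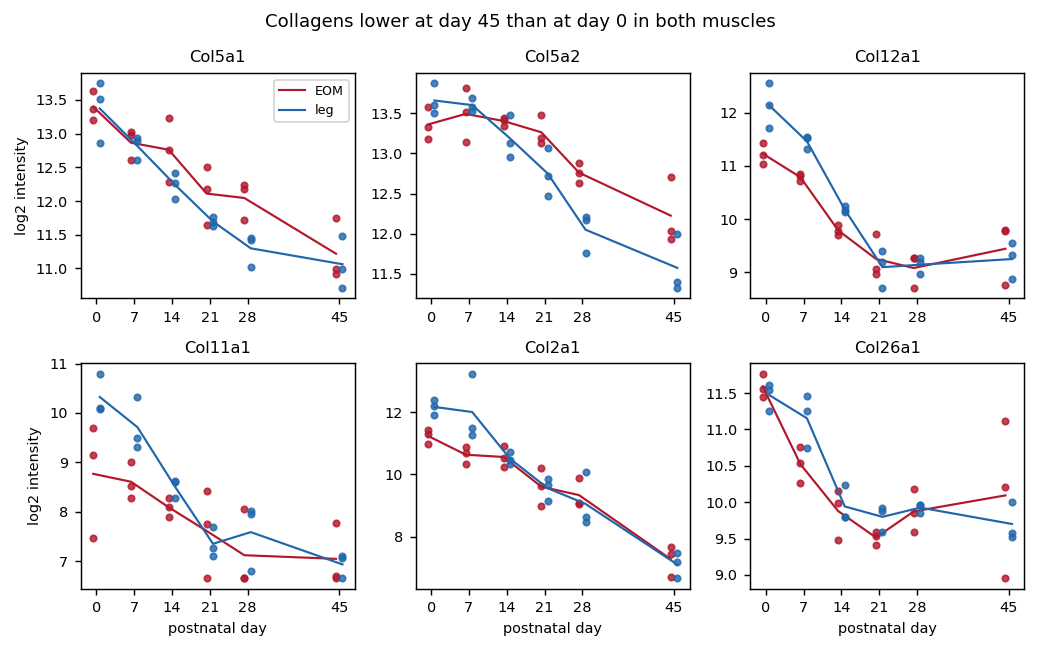
Log2 intensity (vertical axis) of 6 collagens by postnatal day (horizontal axis, days), with 1 point per array, lines through the means of the 3 arrays, EOM in red and leg in blue. In each panel the day 45 mean lies below the day 0 mean in both muscles, and the Col5a2 points of EOM lie above those of leg at day 28.

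Between these ages the fibroblast markers fell too: 3 of 6 in EOM and 4 of 6 in leg, among them Postn (-1.95 ± 0.21 and -3.39 ± 0.21) and Lum (-0.72 ± 0.27 and -2.11 ± 0.27), while 1 rose in EOM. Their summed intensity in EOM was 44012 to 54460.1 at day 0 and 30937 to 49624 at day 45. In leg it was 44657 to 56683 and 21521 to 28514, so that leg arrays of the ages did not overlap and those of EOM did. None of the 6 markers lay at the floor on all arrays of any group. Of 3 tendon markers 2 fell in leg (Thbs4 -1.80 ± 0.27, Fmod -1.41 ± 0.33) and 0 in EOM. The part of these cells in the collagen changes was not tested.

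Types I and III, the bulk collagens of muscle, lay near the top of the scale, and their probe sets did not move alike. Col1a1 ranged from 18940.5 to 30678 in EOM and from 22969 to 34939 in leg, and every array lay in the brightest 5%. Its changes of 0.11 ± 0.18 in EOM and 0.21 ± 0.18 in leg were not past the threshold (adjusted p = 0.695 and 0.41), and so close to the top a change can be understated. Col1a2, the other chain of type I, ranged from 11263 to 25606 over all arrays and had differences of -0.46 ± 0.20 and -0.35 ± 0.20 (adjusted p = 0.0803 and 0.186).

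The other 3 probe sets of Col1a1 did not give 1 answer for leg. Z78279_g_at differed by 0.29 ± 0.25 (adjusted p = 0.399), close to the value of the brightest probe set and also not past the threshold. Z78279_at fell (-0.66 ± 0.24, adjusted p = 0.0332), from 25072, 20797 and 18694 to 20351, 15406 and 7953, with overlapping ages. The probe set rc_AI231472_s_at rose (4.35 ± 1.58, adjusted p = 0.0339) and read 16025, 13 and 81 at day 0 and 13228, 13617 and 7658 at day 45. It read 141, 127 and 10939.7 in leg at day 7, so that 2 of 3 leg arrays were low at both ages. In EOM 1 of 3 arrays was low at each of these ages, with 347, 8467 and 12609 at day 0 and 11669.5, 88.5 and 11438 at day 7. No direction is therefore given for Col1a1.

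Col3a1, the type III chain, rose in EOM by 0.65 ± 0.20 (adjusted p = 0.0147). EOM arrays read 14367, 16372 and 17080.3 at day 0, 31981, 19826 and 28888 at day 28 and 21167, 24107 and 30368 at day 45, and days 0 and 45 did not overlap. The call ended without EOM day 0 replicate 1 (0.58) or EOM day 45 replicate 3 (0.51), and with quantile normalization (0.25) or in a fit of the compared groups alone. In leg the arrays read 30837, 15737 and 18210.0 at day 0 and 16875, 16061 and 18799 at day 45, a difference of -0.26 ± 0.20 (adjusted p = 0.339). Its other probe set, M21354_s_at, differed by 0.48 ± 0.31 (adjusted p = 0.263) in EOM and fell in leg by 0.90 ± 0.31 (adjusted p = 0.0263). The EOM change exceeded the leg change by 0.91 ± 0.29 (adjusted p = 0.0745), not past the threshold.

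**Figure D2:**
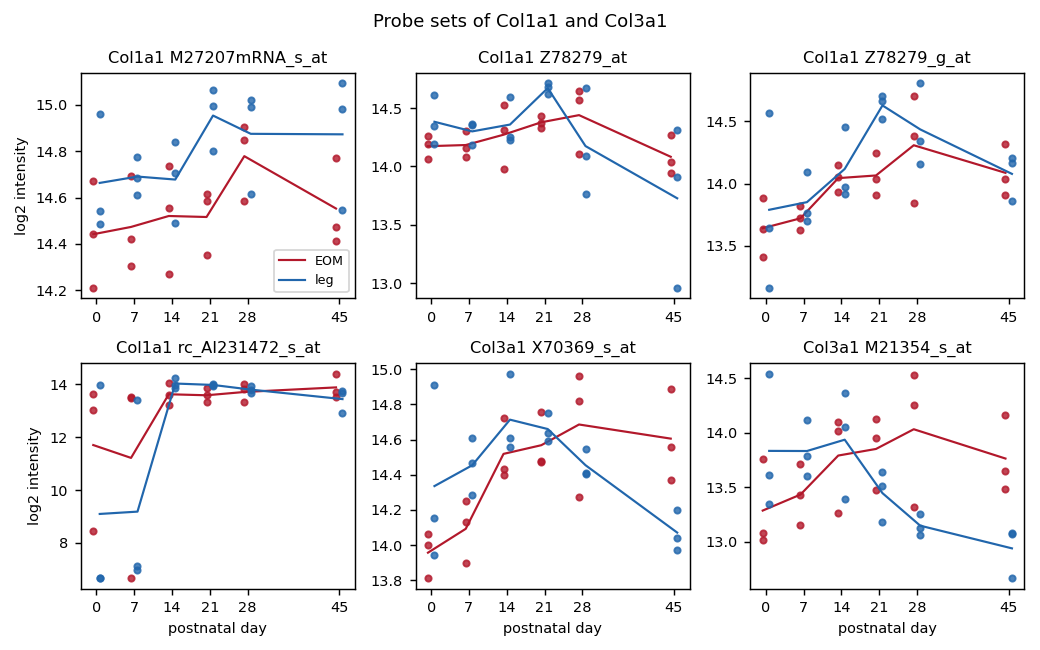
Log2 intensity (vertical axis) by postnatal day (horizontal axis, days) for the 4 probe sets of Col1a1 and the 2 of Col3a1, with 1 point per array, lines through the means of 3 arrays, EOM in red and leg in blue. The probe set rc_AI231472_s_at has 2 of 3 leg arrays and 1 of 3 EOM arrays at each of days 0 and 7 far under the rest, which the other 3 probe sets of the gene do not show.

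Of the 3 tested collagens of the basement membrane zone, 0 passed the threshold between day 0 and day 45 in either muscle, and Col4a5 was higher in EOM at 5 of the 6 ages. Of all tested probe sets, 31.3% in EOM and 32.8% in leg passed between day 0 and day 45. Col4a5, a chain of the basement membrane network, read 930.1, 1381 and 817 at day 0, 935, 1009.6 and 689 at day 7 and 1806, 1631 and 1335 at day 14 in EOM. In leg it read 235, 295 and 250.1 at day 0, 402, 494 and 255 at day 7 and 599, 549.8 and 482 at day 14. All EOM arrays lay above all leg arrays at each of these ages.

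From day 21 on, EOM arrays of Col4a5 read 964, 1616 and 1311 at day 21, 1739, 2437 and 1013 at day 28 and 1522, 2014 and 801 at day 45. Leg arrays read 696, 471 and 740.1 at day 21, 470.0, 538 and 327 at day 28 and 337, 301 and 498 at day 45. The muscles again did not overlap at any of the 3 ages.

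The difference of EOM over leg in Col4a5 was 1.97 ± 0.33 (adjusted p = 1.33e-04) at day 0, 1.23 ± 0.33 (adjusted p = 0.0253) at day 7 and 1.54 ± 0.33 (adjusted p = 0.00379) at day 14. It was 1.02 ± 0.33 (adjusted p = 0.0799) at day 21, where it missed the threshold (with the replicate block 1.02 ± 0.30, adjusted p = 0.0395). That block is a term for replicate number, shared by both muscles and all ages. The Col4a5 difference was 1.90 ± 0.33 (adjusted p = 1.83e-04) at day 28 and 1.87 ± 0.33 (adjusted p = 2.65e-04) at day 45, a 3.65-fold difference. The day 7 call ended without leg replicate 1 (1.29), leg replicate 3 (0.96), EOM replicate 1 (1.17) or EOM replicate 2 (1.12), and in a fit of the compared groups alone. The day 45 call ended in a fit of the compared groups alone. The day 0 to 45 difference was 0.41 ± 0.33 in EOM and 0.51 ± 0.33 in leg, neither past the threshold (adjusted p = 0.383 and 0.249), while the test over all 6 ages was passed in leg (adjusted p = 0.0333). Some Schwann cell markers were higher in EOM at every age, 3, 4, 4, 4, 6 and 4 of 8 from day 0 to day 45 (1 was lower at day 0), and epithelial markers at days 0 and 7, as given above, and their part in Col4a5 was not tested. The leg call over all ages ended in 6 of 18 fits that left out 1 array, those without any of the 3 arrays of day 0, without day 14 replicate 1, or without day 21 replicate 1 or 3, with adjusted p over all alternatives of 0.00124 to 0.0914.

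Col15a1, which links basement membrane to the fibrils around it, had its highest age mean at day 14 in both muscles. EOM arrays read 2138, 2024 and 1966 at day 0, 7130.4, 9356 and 6031 at day 14 and 2577, 2883 and 2234 at day 45. Leg arrays read 2193, 2909 and 1786 at day 0, 4376, 5571 and 3972 at day 14 and 1965, 1854 and 2284 at day 45. In each muscle all day 14 arrays lay above all arrays of days 0 and 45. The change over the 6 ages was past the threshold in EOM (adjusted p = 2.06e-06, a range of age means of 1.85) and in leg (adjusted p = 0.00198, 1.18). EOM minus leg was 0.68 ± 0.23 (adjusted p = 0.0846) at day 14 and 0.75 ± 0.23 (adjusted p = 0.058) at day 21, neither past the threshold. With the replicate block both passed, at 0.68 ± 0.20 (adjusted p = 0.0371) and 0.75 ± 0.20 (adjusted p = 0.0246).

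Col4a3, a further network chain, Col8a1 and Col10a1, the collagen of growth plate cartilage, passed in none of the 9 comparisons as fitted without a block. Col4a3 ranged from 267 to 1030.5 and Col10a1 from 480.4 to 2011 over all arrays. Col8a1, a short-chain collagen of vessel walls, ranged from 103 to 1069 in EOM and from 107 to 497 in leg. Its difference was 1.53 ± 0.65 at day 14 (adjusted p = 0.202) and 1.45 ± 0.65 at day 28 (adjusted p = 0.158), and on most ages its replicates lay far apart.

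Of the 5 tested laminin chains, 0 passed between the muscles before day 28 and 1, Lamb2, passed at days 28 and 45. Of all tested probe sets, 6.32%, 4.98%, 4.92% and 4.03% passed at days 0, 7, 14 and 21. At days 28 and 45 these shares were 11.8% and 10.6%, and counts out of 5 are too small to set apart from them. Lamb2, the beta 2 chain that is enriched at the neuromuscular junction, read 4655, 4918 and 4488 at day 28 and 6229.9, 4322 and 4333 at day 45 in EOM. In leg it read 2879, 3393 and 2866 at day 28 and 3176, 2761 and 3326 at day 45. At both ages all EOM arrays lay above all leg arrays, at 0.63 ± 0.17 (adjusted p = 0.0116) and 0.67 ± 0.17 (adjusted p = 0.00842). The day 28 call ended without EOM replicate 2 (0.59), and with arrays scaled to the same median (0.54), and the day 45 call without leg replicate 2 (0.59) or EOM replicate 1 (0.49), and in a fit of the compared groups alone. At day 0 the arrays had overlapped, with 3783, 3539.9 and 5113 in EOM and 3196, 4387 and 4047 in leg.

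The other Lamb2 probe set, rc_AA900848_at, did not show this, with 0.03 ± 0.25 (adjusted p = 0.966) at day 28 and -0.32 ± 0.25 (adjusted p = 0.511) at day 45. Schwann cell markers were higher in EOM at these ages, 6 of 8 at day 28 and 4 of 8 at day 45. Their summed intensity at day 28 was 33396 to 43232 in EOM and 16254 to 17034 in leg, with no marker at the floor on all arrays of either group. Their part in the laminin difference was not tested.

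Lama2, the alpha chain of the muscle fibre's own basement membrane, fell in leg, from 578, 453 and 817 at day 0 to 318, 129 and 302 at day 45. The ages did not overlap and the change was -1.37 ± 0.44 (adjusted p = 0.0159). The call ended without leg day 0 replicate 3 (-1.15) or leg day 45 replicate 2 (-0.95), and in a fit of the compared groups alone. In EOM it read 628, 741 and 384 at day 0 and 417, 740.1 and 352 at day 45, a difference of -0.24 ± 0.44 (adjusted p = 0.724), and the EOM minus leg difference of the changes, 1.13 ± 0.62 (adjusted p = 0.434), was not past the threshold.

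Lama3, a chain of epithelial laminin, read 45.2, 340.5 and 322 at day 0 and 416, 713 and 325 at day 45 in EOM. It rose by 1.04 ± 0.40 (adjusted p = 0.0462), but the ages overlapped and 1 day 0 array lay at the floor. The call ended without EOM day 0 replicate 1 (0.47), EOM day 45 replicate 1 (1.11) or EOM day 45 replicate 2 (0.72), and in a fit of the compared groups alone. Lamc1, the gamma chain shared by most laminins, ranged from 3613 to 7104 over all arrays, and Lama1, the embryonic alpha chain, from 86.3 to 424. Neither passed in any of the 9 comparisons.

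Among the receptors, both subunits of the main muscle integrin fell in leg, and for the alpha subunit the difference between the muscles' changes was past the threshold in its own test. Itga7, the alpha 7 subunit that binds laminin, read 5629, 7272 and 6657 at day 0, 3691, 3466 and 5016 at day 14 and 3826, 3180.4 and 4822 at day 45 in leg. In EOM it read 3915, 4079 and 4614 at day 0, 6207, 6286 and 6782 at day 14 and 6223, 4170.2 and 5185 at day 45. EOM lay wholly below leg at day 0, wholly above it at days 14 and 28, and overlapped with it at days 7, 21 and 45.

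EOM minus leg for Itga7 was -0.63 ± 0.17 (adjusted p = 0.0228) at day 0 and 0.68 ± 0.17 (adjusted p = 0.0163) at day 14. From day 0 to day 45 it fell in leg (-0.74 ± 0.17, adjusted p = 0.00127), while the EOM difference was 0.29 ± 0.17 (adjusted p = 0.222). The EOM change exceeded the leg change by 1.03 ± 0.25 (adjusted p = 0.0131), the single member of 29 past the threshold in that comparison (3.45%), where 3.7% of all probe sets passed, 2.25% in the direction of EOM and 1.45% in the other. Another Itga7 probe set, X74293_s_at, gave 1.48 ± 0.38 (adjusted p = 0.021), and the remaining one, X65036_g_at, 1.05 ± 0.51 (adjusted p = 0.345). The call ended without leg day 45 replicate 2 (0.88), and in a fit of the compared groups alone. The day 0 call ended without leg replicate 2 (-0.55), leg replicate 3 (-0.61), EOM replicate 1 (-0.58) or EOM replicate 2 (-0.61), and in a fit of the compared groups alone, and the day 14 call without leg replicate 1 (0.62), leg replicate 2 (0.58) or EOM replicate 3 (0.64), and with arrays scaled to the same median (0.64) or in a fit of the compared groups alone.

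Itgb1, the beta 1 subunit that pairs with several of the alpha chains here, read 19884, 14680.1 and 15631 at day 0 and 10733, 10131 and 6483 at day 45 in leg, and 10621, 11434 and 7887 at day 0 and 10609.6, 6958 and 8734 at day 45 in EOM. It fell in leg without overlap (-0.90 ± 0.21, adjusted p = 0.00105). In EOM the ages overlapped (-0.19 ± 0.21, adjusted p = 0.528). At day 0 it was lower in EOM (-0.75 ± 0.21, adjusted p = 0.0228), and that call ended without leg replicate 1 (-0.62) or EOM replicate 3 (-0.59), and with quantile normalization (-0.57) or in a fit of the compared groups alone. Of the 6 arrays of day 0, 5 lay in the brightest 5%.

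Itgb4, the beta 4 subunit of epithelial hemidesmosomes and of Schwann cells, was the member with the largest difference between the muscles. EOM arrays read 914, 527 and 1637 at day 0, 768, 299.7 and 929 at day 7 and 808, 317 and 344 at day 14. Leg arrays read 114, 96.5 and 75.7 at day 0, 124, 155 and 146 at day 7 and 251, 291 and 192 at day 14. All EOM arrays lay above all leg arrays at each of these ages.

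Later EOM arrays of Itgb4 read 821, 351 and 409.7 at day 21, 1352, 884 and 1448 at day 28 and 631, 580.2 and 1977 at day 45. Leg arrays read 206, 280.4 and 156 at day 21, 308, 211 and 240.3 at day 28 and 349.8, 309.7 and 302 at day 45. The muscles did not overlap here either, and leg stayed under the filter level of 320.4 on all arrays but 1. Itgb4 thus passed the filter only through its EOM arrays, the muscle in which it was higher.

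EOM minus leg for Itgb4 was 3.14 ± 0.46 (adjusted p = 1.75e-05) at day 0, at least 8.79-fold, with 2 of 3 leg arrays at the floor. It was 2.08 ± 0.46 (adjusted p = 0.00403) at day 7, 0.88 ± 0.46 (adjusted p = 0.335) at day 14 and 1.24 ± 0.46 (adjusted p = 0.136) at day 21, the last 2 not past the threshold. It was 2.26 ± 0.46 (adjusted p = 9.67e-04) at day 28 and 1.49 ± 0.46 (adjusted p = 0.0331) at day 45. The day 7 call ended in a fit of the compared groups alone, and the day 45 call ended without leg replicate 1 (1.55), leg replicate 2 (1.46), leg replicate 3 (1.45) or EOM replicate 3 (0.92), and with arrays scaled to the same median (1.43), with quantile normalization (1.45) or in a fit of the compared groups alone. Itgb4 rose in leg from day 0 to day 45 (1.61 ± 0.46, adjusted p = 0.0068) and differed by -0.04 ± 0.46 (adjusted p = 0.954) in EOM. Of 9 epithelial and gland markers, 9 were higher in EOM at day 0, 5 at day 7 and 0 at each later age, with a summed intensity at day 28 of 2566 to 2983 in EOM and 2274 to 2884 in leg. Of the Schwann cell markers, 3, 4, 4, 4, 6 and 4 of 8 were higher in EOM at days 0, 7, 14, 21, 28 and 45, and 1 was lower at day 0. Of all tested probe sets 3.93%, 3.33%, 2.61%, 3.48%, 7.63% and 6.89% were higher at these ages. The part of either cell type in Itgb4 was not tested.

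Of the other integrins, Itga1, a collagen-binding alpha chain, fell in EOM from 1282, 966 and 1347 at day 0 to 875, 796 and 393 at day 45 (-0.87 ± 0.33, adjusted p = 0.0452). That call ended without EOM day 0 replicate 1 (-0.81), EOM day 0 replicate 3 (-0.78) or EOM day 45 replicate 3 (-0.51), and with no filter, with arrays scaled to the same median (-0.76), with quantile normalization (-0.75) or in a fit of the compared groups alone. Itgb3 ranged from 55 to 660.1, Itgav from 86.7 to 538 and Itga8 from 93.2 to 429, dim signals that reached the floor. Itga2b, the platelet alpha chain, ranged from 521 to 1209. The leukocyte chains Itgb7 and Itgae ranged from 256 to 1475 and from 90.5 to 779.7. None of these 6 passed in any of the 9 comparisons.

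**Figure D3:**
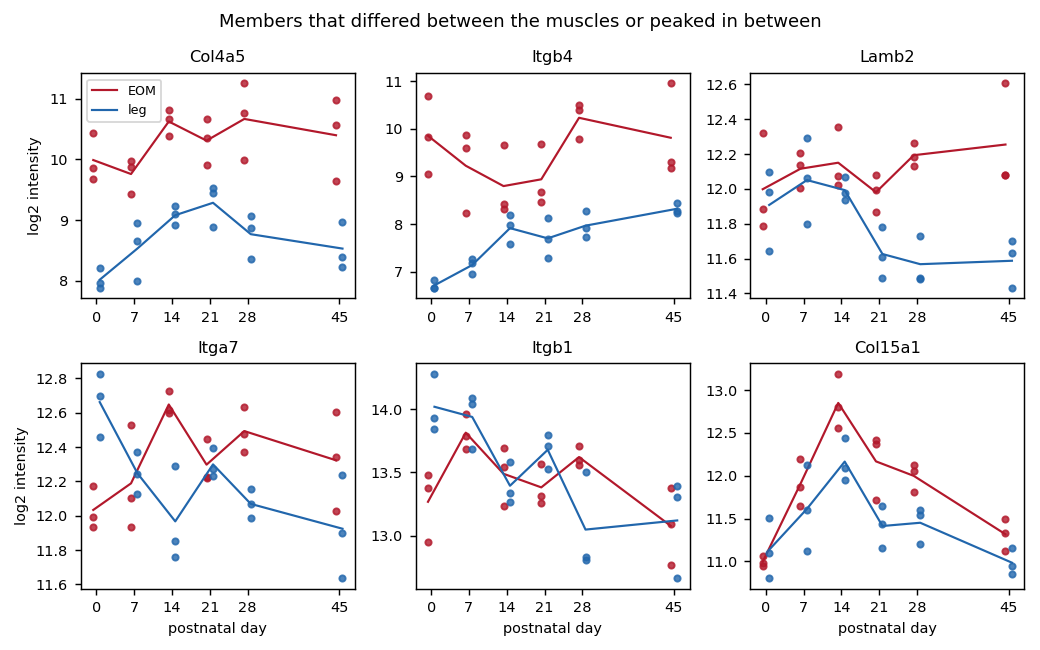
Log2 intensity (vertical axis) by postnatal day (horizontal axis, days) of Col4a5, Itgb4, Lamb2, Itga7, Itgb1 and Col15a1, with 1 point per array, lines through the means of 3 arrays, EOM in red and leg in blue. Col4a5 and Itgb4 points of EOM lie above those of leg at all 6 ages, and Col15a1 is highest at day 14 in both muscles. The Itga7 lines cross between days 7 and 14 and meet again at day 21.

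Between 0 and 5 of the 29 members differed between the muscles at a given age. At day 0, 5 of 29 members differed between the muscles (17.2%, background 6.32%): Col4a5 and Itgb4 were higher in EOM, where 3.93% of all probe sets were higher, and Col12a1, Itga7 and Itgb1 were lower, against 2.4%. Among these, Itgb4 had passed the brightness filter only through its EOM arrays, as given above. Col12a1 read 2106, 2367 and 2773 in EOM and 3369, 5976 and 4515 in leg (-0.91 ± 0.26, adjusted p = 0.0282), with no overlap. That call ended without leg replicate 2 (-0.70), leg replicate 3 (-0.90), EOM replicate 1 (-0.81) or EOM replicate 2 (-0.90), and in a fit of the compared groups alone. Tendon markers were lower in EOM at this age, 2 of 3 (Thbs4 -2.76 ± 0.27, Fmod -2.45 ± 0.33), with a summed intensity of 1321 to 2109.5 against 8799.7 to 11981 in leg, and their part was not tested.

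At day 7, 3 members differed (10.3%, background 4.98%): Col4a5 and Itgb4 were higher in EOM (background 3.33%) and Col2a1 was lower (1.65%). Col2a1 read 1300.3, 1642 and 1884 in EOM and 2898, 2489 and 9705 in leg (-1.37 ± 0.41, adjusted p = 0.0486). Leg replicate 3 stood far above its fellows, and 4 of 6 fits without 1 array lost the call. It ended without leg replicate 3 (-0.76), EOM replicate 1 (-1.23), EOM replicate 2 (-1.40) or EOM replicate 3 (-1.50), and with the lower floor (-1.37), with no filter or in a fit of the compared groups alone. At day 14 the 2 that differed (6.9%, background 4.92%) were Col4a5 and Itga7, both higher in EOM, where 2.61% of all probe sets were higher and 2.31% lower.

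At day 21 limma called 0 of 29 (background 4.03%, 3.48% higher and 0.555% lower), with 6 members at an unadjusted p under 0.05. With the replicate block it called 2, Col15a1 and Col4a5. At day 28, 4 members were higher in EOM (13.8%, background 11.8%, of which 7.63% higher and 4.18% lower) and 0 were lower: Col4a5, Itgb4, Lamb2 and Col5a2 (0.71 ± 0.21, adjusted p = 0.0242). The Col5a2 call ended without leg replicate 3 (0.57), EOM replicate 1 (0.71) or EOM replicate 2 (0.65), and with arrays scaled to the same median (0.63) or in a fit of the compared groups alone. Of 6 fibroblast markers 4 were higher in EOM at this age, with summed intensities of 34203 to 38059.5 in EOM and 28865 to 35869.6 in leg, and their part was not tested.

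At day 45 the same 4 genes were higher in EOM (13.8%, background 10.6%, of which 6.89% higher and 3.69% lower), with Col5a2 at 0.65 ± 0.21 (adjusted p = 0.0438). This call ended without leg replicate 1 (0.56), leg replicate 2 (0.52) or EOM replicate 1 (0.41), and with no filter, with arrays scaled to the same median (0.59) or in a fit of the compared groups alone. Of the markers at day 45, 3 of 6 of fibroblasts (summed intensity 30937 to 49624 in EOM and 21521 to 28514 in leg), 4 of 8 of Schwann cells and 3 of 5 of smooth muscle were higher in EOM. The summed smooth muscle intensity was 17485 to 33641 in EOM and 22258 to 29588 in leg, which overlapped. Their part in the 4 calls was not tested. The median EOM minus leg difference of the 29 members went from -0.09 at day 0 to 0.23 at day 28 and 0.17 at day 45, beside 0.05, 0.05 and 0.01 for all tested probe sets. When arrays were scaled to the same median instead, the median of all probe sets shifted by -0.12 at day 0 and -0.13 at day 21, and by 0.11 for the EOM change from day 0 to 45, and the members' median was -0.23, -0.02 and -0.08 there.

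**Figure D4:**
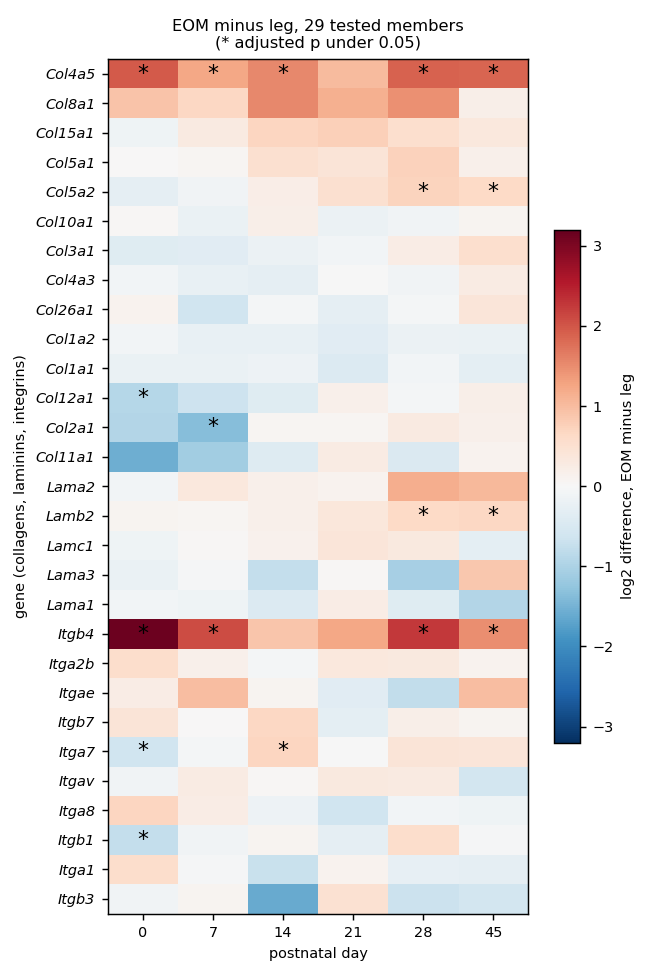
EOM minus leg log2 difference (colour, red higher in EOM and blue lower) of the 29 tested genes (rows, grouped as collagens, laminins and integrins) at each postnatal day (columns, days). Asterisks mark adjusted p under 0.05: Col4a5 carries 5 and Itgb4 4 of them, and the day 21 column has none.

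Over all 6 ages, 10 members changed in EOM (34.5%, background 31.4%) and 14 in leg (48.3%, background 35.9%). By family these were 8 of 14 collagens in each muscle, 0 and 2 of 5 laminins, and 2 and 4 of 10 integrins. Leaving out single arrays moved the totals between 8 and 12 in EOM and between 10 and 14 in leg. The integrins of EOM were Itgb3 (adjusted p = 0.0299) and Itga8 (adjusted p = 0.0447). The call of Itgb3 ended in 7 of 18 fits that left out 1 array and that of Itga8 in 13 of 18, with adjusted p over all alternatives of 0.0125 to 0.0706 and 0.0082 to 0.264. Among other settings, both calls also ended with arrays scaled to the same median and with quantile normalization. The laminins of leg were Lama2 and Lamb2. The Lama2 call ended without leg day 0 replicate 3 and in a fit of the compared groups alone. The Lamb2 call ended in 13 of 18 fits that left out 1 array (0.0227 to 0.199 over all alternatives). It also ended with arrays scaled to the same median, with quantile normalization and in a fit of the compared groups alone. The integrins of leg were Itga7, Itgb1, Itgb4 and Itgae. Itgae had its highest age mean in leg at day 28 (779.7, 742 and 665) and lowest at day 7 (290.3, 158 and 240.3), with adjusted p = 0.00452, and the call ended in a fit of the compared groups alone (adjusted p = 0.0671). Of its other probe sets, AF020046_i_at gave 0.379 and AF020045_at was too dim to test. The call of Itgb4 ended in 14 of 18 fits that left out 1 array, with no filter, with arrays scaled to the same median and with quantile normalization. That of Itga7 ended without leg day 0 replicate 2 and with arrays scaled to the same median.

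**Figure D5:**
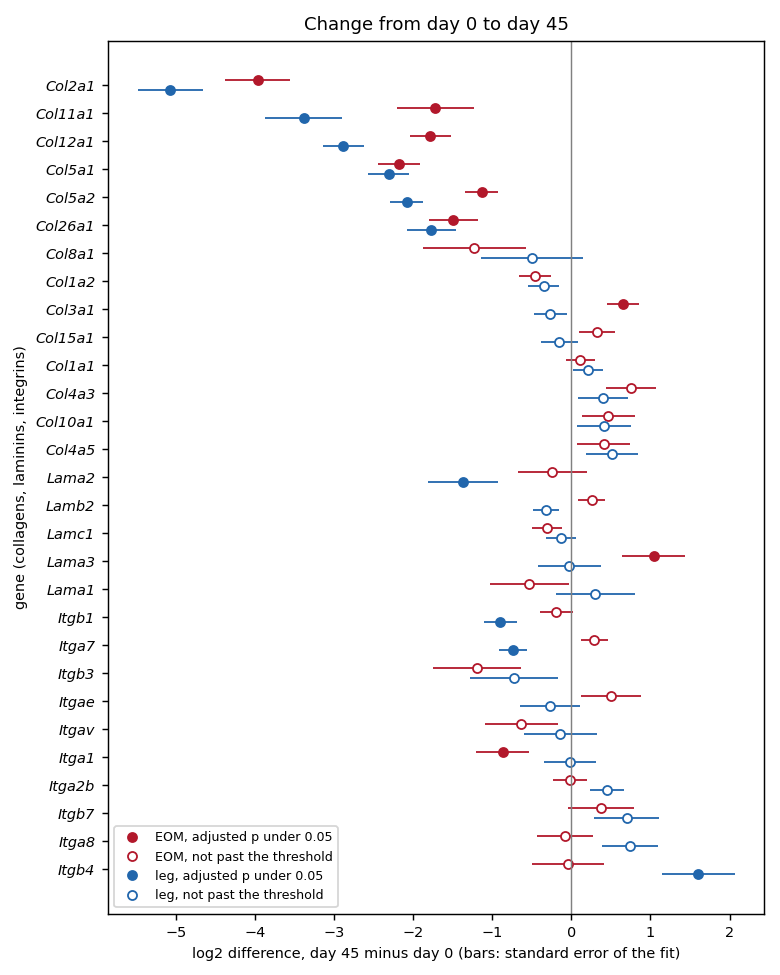
Log2 difference of day 45 minus day 0 (horizontal axis) for the 29 tested genes (vertical axis), EOM in red and leg in blue, with bars of 1 standard error of the fit. Filled points passed an adjusted p of 0.05: 6 collagens lie well left of 0 in both muscles, led by Col2a1. The laminins and integrins lie on both sides of 0, with Lama2 lowest and Itgb4 highest among them in leg.

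Other genes of the matrix pathway were read from lists of matrix proteins, proteoglycans, collagen-processing enzymes, proteases, receptors, linker proteins and growth factors, of which 59 were tested. The lists were chosen with earlier results of these data known. Their shares, here and below, are therefore no independent test against those of all probe sets. Between day 0 and day 45, 23 fell and 3 rose in EOM, 28 fell and 3 rose in leg, and 22 fell in both. As shares, 39% fell and 5.08% rose in EOM and 47.5% and 5.08% in leg, beside 18.4% and 12.9%, and 18.5% and 14.4%, of all tested probe sets. The 22 were 95.7% of those that fell in EOM and 78.6% of those that fell in leg, beside the 64.8% and 64.7% of all probe sets. The median change of the 59 was -0.42 in EOM and -0.70 in leg, against -0.04 and 0.06 for all. Of the 9 tested enzymes and chaperones that process collagen, 8 fell in each muscle. Lox, which cross-links fibrils, fell by 3.72 ± 0.31 in EOM and 3.15 ± 0.31 in leg. Serpinh1, the collagen chaperone, fell by 0.84 ± 0.22 and 2.02 ± 0.22. Plod2, which hydroxylates lysine in collagen, fell by 1.29 ± 0.24 and 1.48 ± 0.24.

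The 5 tested proteoglycans had 3 that fell in EOM and 4 in leg, led by Vcan, a large proteoglycan of immature matrix, at -3.85 ± 0.46 and -4.20 ± 0.46. Of 11 proteases and inhibitors 3 fell in EOM and 4 in leg, with Mmp16 at -2.32 ± 0.32 and -2.75 ± 0.32, and 1 rose in each. Of 10 matrix glycoproteins 4 fell and 1 rose in EOM, and 5 fell and 1 rose in leg, where Sparc, a collagen-binding protein, rose by 0.61 ± 0.21. The 6 integrin-linked cytoplasmic proteins had 2 that fell in each muscle, Ptk2, the focal adhesion kinase (-0.91 ± 0.23 and -1.19 ± 0.23), and Pxn (-0.79 ± 0.27 and -0.76 ± 0.27), while Src, a kinase that acts with them, rose (1.68 ± 0.38 and 1.50 ± 0.38).

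Between the muscles, 5 of the 59 were higher and 3 lower in EOM at day 0, and 3 were higher and 2 lower at day 7. At day 0 these were 8.47% and 5.08% of the list, beside 3.93% and 2.4% of all probe sets. At day 7 they were 5.08% and 3.39%, beside 3.33% and 1.65%. At days 14, 21, 28 and 45, 10, 11, 15 and 13 were higher and 0 were lower. The higher ones were 16.9%, 18.6%, 25.4% and 22% of the list, beside 2.61%, 3.48%, 7.63% and 6.89% of all probe sets. At the same 4 ages 0, 0, 4 and 3 of 6 fibroblast markers, some of which are also on these lists, and 4, 4, 6 and 4 of 8 Schwann cell markers were higher in EOM, and their part was not tested. At day 45 they included Lum, a proteoglycan that binds fibrils (1.74 ± 0.27), Fbln5, an elastic fibre protein (1.50 ± 0.21), and the chaperone Serpinh1 (1.34 ± 0.22). In the difference of the day 0 to 45 changes, 9 of 59 were more positive in EOM (15.3%, background 2.25%) and 0 more negative (background 1.45%). The largest was Igf1, the growth factor (2.60 ± 0.50).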

How the data were processed

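The authors hybridised total RNA to 36 RG-U34A arrays, per the labels. The deposited table holds 1 linear intensity per probe set and array, already scaled: the trimmed mean between the 2nd and 98th percentiles was 1499.44 to 1501.08 on every array. The software that made them is not stated in the labels or the file. Values (44 of them zeros) were raised to a floor of 100.9, the 20th percentile of the whole table, which held 10.0% to 23.5% of an array, and turned to log2. The 59 control probe sets were left out, and 6672 of 8799 probe sets were tested, those over the 40th percentile (320.4) on at least 3 arrays. The number of arrays limits the precision. Of the probe sets, 7006 carried 1 symbol in the platform annotation, 308 several and 1426 none, and all 45 member probe sets matched the gene table.

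The 12 group means were estimated jointly from the 36 arrays by limma 3.58.1, run in R 4.3.3 (trended prior, 24 residual and 5.84 prior degrees of freedom), with Benjamini-Hochberg adjustment within each of 9 contrasts and 2 F tests and a threshold of 0.05. The scripts were tested on simulated data. Plots used matplotlib 3.10.9 under python 3.11.15. The members and lists were chosen with earlier results of these data known. Any member could be named, with values on each array for those past the threshold in a contrast, and up to 3 other genes per list past it, by size. Where an array of the dimmer group lay at the floor, a fold is written as at least.

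Same-numbered EOM and leg arrays were checked for pairing through their deviations from the group means. They correlated at 0.17, 0.13 and 0.30 at day 7, at 0.12, 0.11 and 0.16 at day 14 and at 0.10, 0.15 and 0.37 at day 21, each over 0.1 before rounding. At days 0, 28 and 45 at least 1 of the 3 was lower. Any pairing at days 7, 14 and 21 would thus rest on these correlations alone, since the labels state none. Arrays with different numbers were not compared, so the correlations cannot show that the muscles were paired. Alternatives were another floor, no filter, the same median, quantile normalization, another rule for the probe set, a fit of the compared groups alone, the replicate block and leaving out each array. The replicate block added a term for replicate number to the fit, shared by both muscles and all ages. It therefore does not pair EOM with leg within an age.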

Additional observations from a re-analysis of the deposited data

Results flagged for a closer look

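In the main fit, Itga7 was the single member of 29 (3.45%) whose change from day 0 to day 45 differed between the muscles. Of all tested probe sets 3.7% passed in that comparison, so the share of members was no higher. EOM exceeded leg by 1.03 ± 0.25 (adjusted p = 0.0131) by limma's moderated test. The age change was 0.29 ± 0.17 in EOM and -0.74 ± 0.17 in leg. The call ended without leg day 45 replicate 2 (0.88) and in a fit of the compared groups alone. Of the other Itga7 probe sets, X74293_s_at passed and X65036_g_at did not, as given above. The number of members called in this comparison depended on the setting, as given below. The cause was not tested.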

How the results depend on the processing

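The 62 calls of members in the 9 contrasts and 2 F tests were checked 1100 times in all. Of these checks, 946 kept the call and 154 lost it. In the 9 contrasts 0 changed sign, while an F test has no direction that could change. The other rule for the probe set reread the main fit, so it was no refit. Counts of members called that moved by over 1.5 times were as follows. A fit of the compared groups alone called 3 at day 0, 1 at day 7, 0 at day 45, 4 for the EOM age change and 0 for the difference of the changes. With arrays scaled to the same median, 1 was called at day 14, 2 at day 28 and 2 at day 45. Quantile normalization called 7 at day 28 and 3 for the difference of the changes. The replicate block called 2 at day 21 and 3 for the difference of the changes (Itga7, Col3a1 at 0.91 and Col5a2 at 0.95). It also added Col11a1 at day 0 (-1.55), Col3a1 at day 45 (0.53) and Col4a3 for the EOM age change (0.75). Days 0 and 45 enter those comparisons. Same-numbered arrays correlated there at 0.05, 0.10 and 0.05 at day 0 and at -0.09, 0.08 and 0.10 at day 45. Over all tested probe sets the block raised the calls between the muscles from 422 to 511 at day 0 and from 706 to 868 at day 45. The block fits replicate number across both muscles and all ages, so it is no paired comparison of EOM and leg within an age. The labels state no pairing, so whether these arrays share more than a number is not known. Leaving out 1 array gave 3 to 5 members at day 0, 1 to 3 at day 7, 1 to 2 at day 14, 0 to 1 at day 21, 2 to 6 at day 28 and 2 to 5 at day 45. It gave 6 to 9 for the EOM age change, 9 to 11 for leg, 0 to 3 for the difference, and 8 to 12 and 10 to 14 for the F tests in EOM and leg. The cause was not tested. Over all tested probe sets, the same median turned the higher and lower calls from 262 and 160 into 201 and 203 at day 0, from 232 and 37 into 130 and 56 at day 21, from 509 and 279 into 384 and 317 at day 28, and from 861 and 1229 into 1012 and 1015 for the EOM age change. Signals near the floor (Col11a1, Itgb4 in leg, Lama3) and near the top (Col1a1, Col1a2, Col3a1, Itgb1) can understate changes.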
